A study of Drosophila melanogaster with 64 samples.

Results

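The segment described here is the distal part of the Drosophila melanogaster X chromosome, from the telomere end to 11.9 Mb on the coordinates of the deposited count table. Its members are the genes whose first listed chromosome is X and whose smallest start lies below that position, without the ribosomal protein genes named RpL or RpS (9 genes left out). There are 1351 of them among the 17606 genes of the table, with starts from 122493 to 11899996, and 1271 X genes lie at or beyond the limit. The limit was chosen by measured values, namely the changes of the translocation lines BM5 and BM1 over the parental stock in these same libraries: the change of BM5 steps up at 11.9 Mb, and the rise of BM1 ends somewhat farther on. Every value of BM1 or BM5 against the parental stock is therefore a description of how the members were selected and has no test here.

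A Drosophila male has a single X. In somatic cells the MSL complex, made of proteins such as Mof, an acetyltransferase, and the noncoding RNAs roX1 and roX2, raises transcription along that X, whereas the complex is not thought to act on it in the male germline. In the testis, germ cells pass from spermatogonia through a long spermatocyte growth phase with a broad transcription programme to meiosis and spermatid differentiation. Larval testes lack the late spermatid stages, and translocations between the X and a large autosome often leave males sterile.

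Poly(A) RNA was counted in 64 libraries of dissected testes, 4 pools for each of 8 lines at 2 stages. Each third-instar larval (L3) pool came from 15 testes after fat body was digested away with papain and collagenase, and each adult pool from 20 testes from males of 1 to 5 days cut away from the seminal vesicle. All lines carried Dp(1;1)scV1, with the y2, y+, sc+ and scV1 alleles and the markers su(wa), wa, cv, v and f (the labels write a gamma sign for the letter y). The control was the irradiated parental stock. Translocations T(1;2) of the X and chromosome 2 were labelled fertile in BM4 and BM21 and sterile in BM1, BM5, BM6, BM24 and BM46. Sterile lines were kept over FM7i, P{ActGFP}JMR3 and fertile lines and the parental stock with C(1)M4 females, so that sterility and stock keeping cannot be told apart. Each translocation is 1 isolate. The labels do not say whether pools came from separate crosses, and p-values then measure the spread between pools, which may be technical.

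Depth ran from 8961413 to 21275143 counts per library in L3 and from 20387 to 24650332 in adults. Adult BM6 replicate 3, BM24 replicate 2 and BM24 replicate 3 held 20387, 233047 and 43347 counts. They are left out of the values per library below but not of the tests, unless a sentence says so. Fat body markers summed to 9731 and 9827 CPM (counts scaled to a library total of 1000000) in the shallow BM24 libraries, against 55.6 to 134 in adult parental ones. Testis germline markers were present throughout (9 of 9 counted, 1949 to 2215 CPM in L3 and 2557 to 2992 in adult parental libraries), and of 6 salivary glue genes, all members, 4 had no count in L3 and 5 none in adult parental libraries. Each library name starts with a letter and a number, whose meaning the labels do not give. The adult parental libraries share their letter with L3 BM24 and L3 BM46 and with no other adult library, so if the letter marks a batch, it cannot be told apart from the parental stock in adults.

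Of the 1351 members 1137 are protein-coding, 158 ncRNA genes, 28 pseudogenes, 13 snoRNA genes and 5 tRNA genes by the Ensembl BDGP6 annotation, and 10 had no identifier there. They were spread evenly over the strands, with 673 on the plus and 678 on the minus strand. Of them 848 had a mean of at least 1 CPM in every one of the 16 groups, 301 stayed under 1 CPM in every group, and 34 had no count anywhere. The sources used here do not give the strand setting of the counting, so counts of antisense and overlapping genes are uncertain.

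The strongest transcripts of the segment were those of testis genes, most of them without a described function. Levels of different genes are given as CPM per kilobase of counted length. CG1394 (FBgn0030277, X 11169811 to 11170678) led in adult parental testes with 1519 ± 56.9 (SD, n = 4), and had 765 ± 38.7 in L3. TrxT (FBgn0029752, X 5310581 to 5311888), the thioredoxin made in the testis, followed with 1321 ± 117 in adults and 731 ± 22.3 in L3. CG15198 (FBgn0030283, X 11248236 to 11248885) had 932 ± 110.2 and 357 ± 34.0. At CG1999 (FBgn0029947, X 7358796 to 7360058) the levels were 589 ± 52.3 and 313 ± 11.5. The noncoding lncRNA:CR43264 (FBgn0262945, X 5831898 to 5832215) ran the other way, with 539 ± 86.1 in adults and 1288 ± 244 in L3, the highest of the L3 levels. The other leading members were lncRNA:CR42767, CG15200, CG11106, lncRNA:CR32690, CG16782 and CG15892.

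The level of the whole segment stood below that of chromosome 3 in every library. For each library it was the mean log2 CPM per kilobase over 949 members with a mean log2 CPM of at least 0, minus the same mean over 4796 genes of chromosome 3, which the translocations do not involve. In the L3 parental stock this difference was −0.442 ± 0.00655 (SD, n = 4), and in the adult parental stock −0.484 ± 0.0198. X genes beyond the limit (798 genes) stood at −0.251 ± 0.0126 in L3 parental libraries. From L3 to adult the segment's level moved by −0.0418 in the parental stock, while X genes beyond the limit moved by −0.175. The sign of this small stage difference depended on the summary: with the median over genes it was 0.0861 and with genes of a mean log2 CPM of at least 3 it was 0.0276.

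Among lines, BM1 had the highest and BM5 the lowest level at both stages. The 4 adult BM1 libraries lay at −0.303 to −0.251, and the 4 adult BM5 libraries at −0.641 to −0.627, on either side of the parental range of −0.502 to −0.459. In L3 the BM1 libraries lay at −0.305 to −0.285, those of BM5 at −0.571 to −0.54 and the parental ones at −0.448 to −0.434. BM46 and BM6 also stood above the parental stock without overlap at both stages. BM46 lay at −0.357 to −0.302 in L3 and −0.39 to −0.367 in adults, and BM6 at −0.427 to −0.387 in L3 and, in its deep adult libraries, at −0.414 to −0.377. BM24 in L3, at −0.434 to −0.401, lay only just above the parental libraries. BM4 in L3, at −0.408 to −0.392, lay above the parental libraries, and in adults, at −0.521 to −0.486, overlapped them. BM21 overlapped the parental libraries at both stages. The X beyond the limit went the other way in the lines used to set it: relative to the parental stock it changed by −0.0921 in adult BM1 and by 0.244 in adult BM5, against 0.204 and −0.15 for the segment. In adult BM24 the change was 0.0169 with all 4 libraries and −0.0562 with the 2 deep ones. These 2 deep libraries, at −0.549 and −0.531, lay below the parental range. All these line changes share the parental libraries. In bulk tissue, fewer cells that express a gene and less RNA per cell cannot be told apart.

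**Figure D1:**
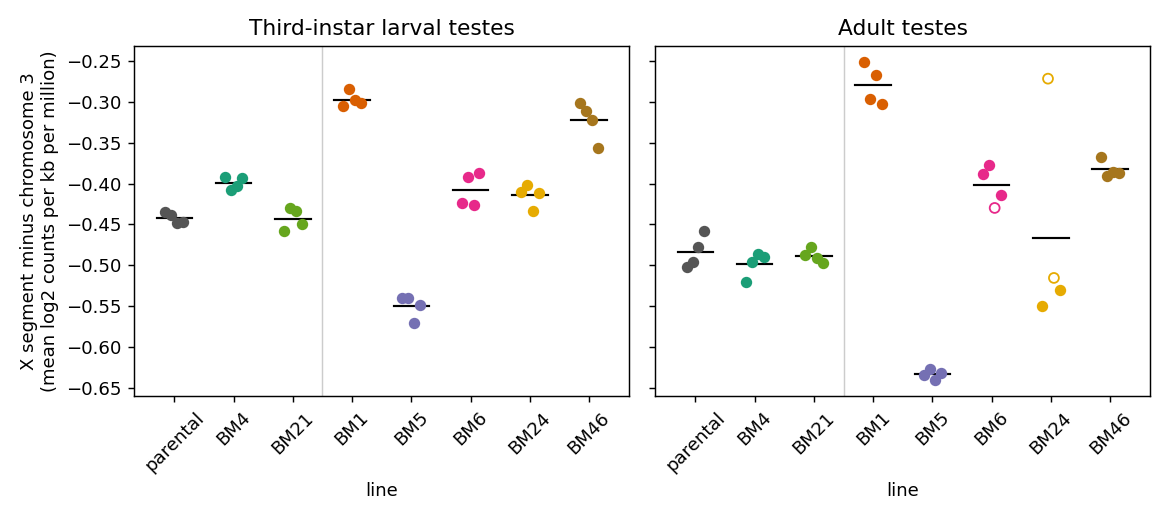
Level of the X segment minus that of chromosome 3 in each library (vertical axis, difference of mean log2 CPM per kilobase) by line, in L3 and adult testes. Points are libraries, open points the 3 adult libraries under 1000000 counts, bars the mean of 4 libraries, and the thin vertical line parts fertile from sterile lines. BM1, BM46 and BM6 lie above and BM5 below the parental libraries at both stages.

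The segment's part of all counts placed the lines in another order than its level did, with BM6 above BM46 and both fertile lines above the parental stock in adults. The segment took 5.93 to 6.1% of the counts in L3 parental and 5.21 to 5.55% in adult parental libraries. BM1 libraries gave it 7.61 to 7.68% in L3 and 7.19 to 7.42% in adults, and BM5 libraries 5.84 to 5.92% and 4.81 to 4.93%. Deep adult BM6 libraries reached 7.19 to 7.23% and adult BM46 6.71 to 6.85%, whereas the fertile lines reached 5.79 to 5.95% in BM4 and 5.97 to 6.07% in BM21. No deep adult BM6, BM46, BM4 or BM21 library overlapped the parental range.

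Between stages most members changed, in both directions. Of the 971 members tested in the parental stock, 330 were called higher in adults and 373 lower (edgeR quasi-likelihood test, adjusted p under 0.05 over all genes). The shares, 34.0% and 38.4%, were near the 36.1% and 38.5% of all genes. With scaling by library size alone the split was 208 higher and 559 lower, because that scaling moved the median of all genes by −0.41 on the log2 scale. Directions are therefore relative to the trimmed-mean scaling. The summed level of the 28 spermatocyte and late spermatid genes, none of them a member, was 4351 to 4691 CPM in L3 and 9289 to 9883 in adult parental libraries, and 3 of them had no count at either stage. The 18 muscle genes summed to 433 to 480.3 and 1074 to 1186 CPM. The part of either in the stage changes was not tested.

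The direction differed by expression level. The genes tested were cut into 4 bins of equal size by their mean level over both stages. Members of the highest bin had a median change of 0.37 toward adults, with 111 called higher and 32 lower of 175. The median was −0.24 in bin 3, −0.26 in bin 2 and 0.09 in the lowest bin. Chromosome 3 genes had medians of 0.24, −0.30, −0.28 and 0.34 in the same order. The largest gap to chromosome 3 was in the lowest bin.

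The members that rose most from L3 to adult were nearly absent from L3 testes. CG3713 (FBgn0040343, X 846171 to 847157) had no count in the 4 L3 parental libraries and 38.5, 48.1, 43.6 and 38.3 CPM in the adult ones, at least 616-fold higher against a floor of 3 counts over the L3 group. Larval libraries of the other lines held 0.1076 CPM or less of it. CG12645 and CG14635 also had no L3 count and were at least 274-fold and 256-fold higher. NAAT1, an amino acid transporter gene, had 1 L3 count against 2615 adult counts, a ratio of 2248 with a counting interval of 403 to 88835. asRNA:CR46195 had 3 L3 counts and a ratio of 83.1 (interval 28.2 to 405). Intervals and floors cover counting error only.

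Larger amounts of RNA were behind the rise of Idgf4 (FBgn0026415, X 9927973 to 9930948), a chitinase-like growth factor of imaginal discs, from a range of 1.38 to 1.96 CPM in L3 to one of 116 to 135 in adults (log2 change 6.26 ± 0.12 SE, adjusted p = 5.63e-13). CG2233 rose from a range of 1.79 to 3.24 to one of 71.8 to 123 CPM (5.38 ± 0.21, adjusted p = 4.03e-10). At CG12111 the change was 4.96 ± 0.11, with 134 to 159.6 CPM in adults. CG32712, CG3690, CG14634 and asRNA:CR44891 rose by 7.81, 6.55, 5.40 and 4.94 on the log2 scale. In all of these the adult and L3 libraries did not overlap.

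The largest fall from L3 to adult was at br (FBgn0283451, X 1575132 to 1664869), the ecdysone-induced zinc finger gene of metamorphosis. Its L3 libraries held 44.9, 42.9, 43.5 and 50.2 CPM and its adult libraries 4.99, 7.51, 7.38 and 8.47, a log2 change of −2.73 ± 0.14 (adjusted p = 3.15e-09). The ecdysone response gene Hr4, a nuclear receptor, fell by 1.52 on the log2 scale (adjusted p = 3.76e-07). Hr4 was named for its change and is not on the list of ecdysone genes, which holds 3 members. Of these br and dor were called lower and usp was not called. Aladin, a nuclear pore protein gene, fell from a range of 30.4 to 32 to one of 12.2 to 14.9 CPM (−1.14 ± 0.08, adjusted p = 5.85e-08). Gbeta5, a G protein subunit gene, changed by −1.13 ± 0.13 and lncRNA:CR43264 by −1.22 ± 0.14. CG15912, CG3176, CG15317, CG11700, CG15930, CG10802 and CG14434 changed by −1.25 to −1.07.

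The other listed groups of members held genes called each way, to be read beside the 36.1% higher and 38.5% lower of all genes. Of 10 genes of meiosis, spindle and cell cycle 1 was called higher in adults and 5 lower. The higher one was Klp3A (0.52), a kinesin of the spindle midzone in spermatocytes, and the lower ones were nod (−1.22), a kinesin-like protein of female meiosis, Cdk7 (−0.83), feo (−0.83), mei-9 (−0.82) and mus81 (−0.66), the last 2 DNA repair nucleases. Of 9 tested genes of germline and sex determination TrxT rose (0.88), and 5 fell: Sxl (−0.28), fs(1)K10 (−0.61), fs(1)Yb (−0.84), ovo (−0.69) and snf (−0.80). Of 11 genes of somatic signalling and adhesion 5 rose, among them sn (1.16), the actin bundler fascin, and per (0.90), a clock gene, and arm, the beta-catenin gene, fell (−0.27). Housekeeping genes went both ways, with 5 higher and 4 lower of 10, and the cytoplasmic actin gene Act5C rose by 1.33. roX1 rose (0.54) and mof fell (−0.64) among the 3 dosage compensation genes of the segment. Of the 5 tested marker genes of the shared genotype cv rose (1.45) and 4 fell. The lists were drawn up with earlier results of these data known.

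The other lines had a stage change of like extent. In BM4, 731 of 1001 members were called between stages (73.0%, with 77.8% of all genes). BM21 gave 729 of 998 (73.0%, all genes 75.0%). The sterile lines gave 787 of 1018 in BM1 (77.3%, all genes 80.3%), 743 of 980 in BM5 (75.8%, all genes 77.4%) and 732 of 992 in BM6 (73.8%, all genes 76.9%). BM24 gave 658 of 975 (67.5%, all genes 69.3%) and BM46 774 of 1009 (76.7%, all genes 78.9%). The share of called members that were higher in adults ran from 36.8% in BM24 to 50.4% in BM6. With library size alone it ran from 23.5% in BM24 to 30.0% in BM6, and was more than 10 percentage points lower in each line.

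Members called higher in adults outnumbered those called lower in BM6, BM46, BM24 and BM21, and were near them in number in BM4. In BM1, 416 members were called higher and 122 lower of 1045 tested, against 26.8% and 24.4% of all genes. In BM5 the counts were 36 and 148, beside 15.6% and 15.4% of all genes. Nothing is read from these counts, since both lines set the limit. BM6 had 318 members higher (30.4%, all genes 19.8%) and 114 lower (10.9%, all genes 18.7%). BM46 had 292 higher (27.9%, all genes 17.0%) and 106 lower (10.1%, all genes 17.0%). For BM24 the counts were 193 higher (18.5%, all genes 15.0%) and 83 lower (7.94%, all genes 13.5%). In the fertile BM21 114 were higher (10.9%, all genes 11%) and 38 lower (3.64%, all genes 8.61%). The fertile BM4 had 50 higher (4.78%, all genes 9.12%) and 46 lower (4.40%, all genes 8.69%). The segment and the X beyond the limit had adult median log2 changes of 0.0527 and 0.0526 in BM24. These medians were 0.0753 and 0.0754 in BM21, and 0.0362 and 0.056 in BM4. In BM6 they were 0.09998 and −0.0196, and in BM46 0.1129 and 0.0358. In BM24, BM21 and BM4 the adult rise in the median was thus not particular to the segment.

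With library size alone the adult split moved by over 10 points in 3 lines, to 337 higher and 201 lower in BM1, 92 and 38 in BM4, and 26 and 256 in BM5. The median of all genes moved by −0.12 in BM1 and by less than 0.1 in the other lines. Without the 3 shallow libraries the calls rose to 199 in BM4, 279 in BM21, 289 in BM5, 392 in BM24 and 535 in BM6. DESeq2 gave 38, 69, 62, 157 and 252 in these lines, 348 in BM1 and 212 in BM46. Without replicate 4 of every line, which holds the shallowest parental library, BM21 had 63 and BM5 99 calls.

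The changes differed by expression level. Among the 222 members in the highest bin of mean adult level the median log2 change was 0.57 in BM6, with 153 called higher and 10 lower, 0.46 in BM46 (144 and 6), 0.32 in BM24 (96 and 11), 0.21 in BM21 (51 and 2) and 0.10 in BM4 (12 and 3). BM1 had 0.59 (166 and 5), while BM5 had 0.02 (8 and 13). In the 2 middle bins the medians were 0.06 and 0.06 in BM1, −0.02 and −0.02 in BM6, and 0.01 and 0.03 in BM46. The 297 members of the lowest bin had 0.30 in BM1, 0.08 in BM6, 0.08 in BM46, 0.05 in BM21, −0.03 in BM4, −0.11 in BM24 and −0.18 in BM5. Chromosome 3 genes of the lowest bin had medians of 0.39 in BM1, 0.24 in BM6 and 0.13 in BM46. The 1414 chromosome 3 genes of the highest bin had medians from −0.01 to 0.06 over the 7 lines. Across the limit, the 203 X genes of that bin had 0.05 in BM1, 0.73 in BM5, 0.21 in BM6, 0.30 in BM46, 0.28 in BM24 and 0.20 in BM21. With scaling by library size alone each line's median for the segment's highest bin kept its sign except that of BM5 (−0.08).

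**Figure D2:**
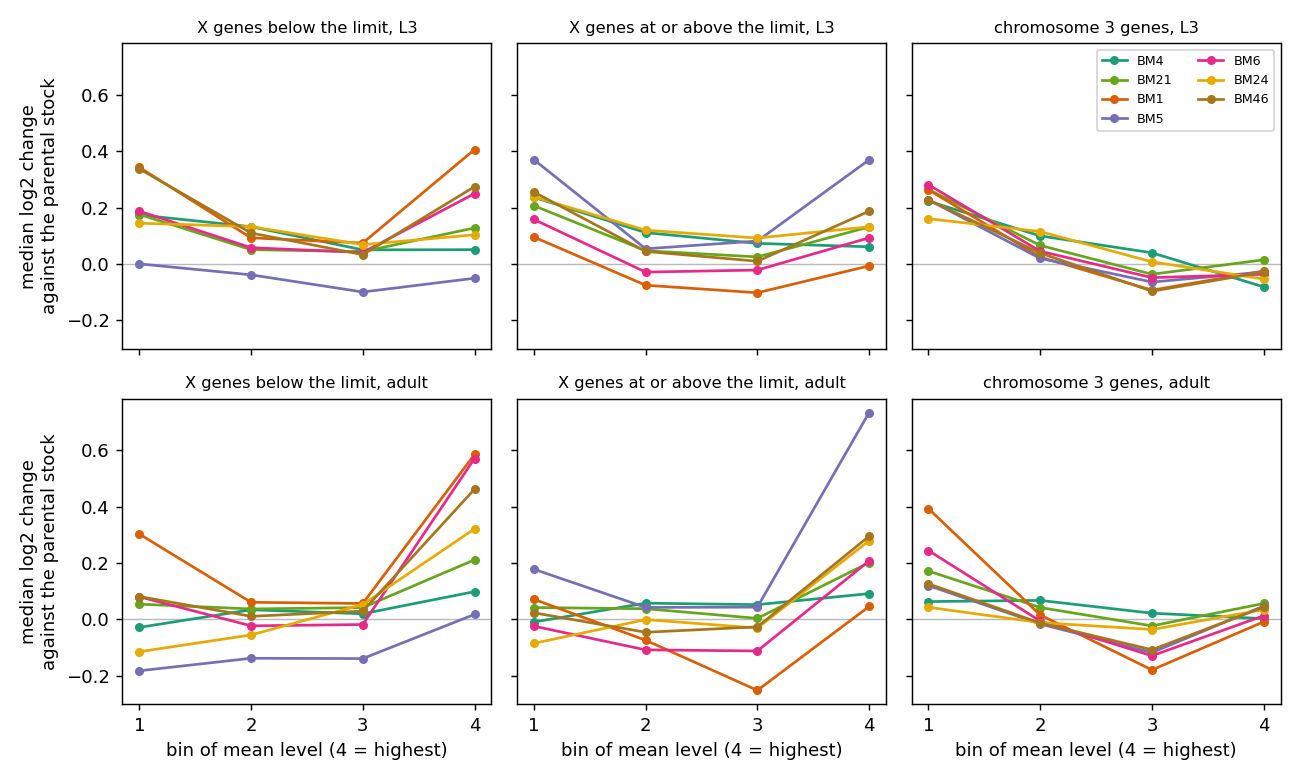
Median log2 change of each translocation line against the parental stock (vertical axis) by bin of the mean level of all genes tested (horizontal axis, 4 the highest), for X genes below the limit, X genes at or beyond it and chromosome 3 genes, in L3 (top) and adult testes (bottom). Lines join the medians of a translocation, and all share the parental libraries. In adult testes the bin 4 medians of the segment reach 0.59 in BM1 and 0.57 in BM6, beside 0.02 in BM5, whose median beyond the limit is 0.73.

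Bins that did not use the lines described were tried after seeing the data, cut from the BM4 and BM21 libraries alone. The 215 members then in the highest adult bin had medians of 0.56 in BM6 (148 higher, 10 lower), 0.45 in BM46 (136 and 6), 0.31 in BM24 (92 and 11), 0.59 in BM1 (159 and 5) and 0.01 in BM5 (7 and 13). The 1426 chromosome 3 genes of that bin had medians from −0.02 to 0.04, with 158 higher and 205 lower in BM6 and 151 and 175 in BM46. The 202 X genes beyond the limit had 0.21 in BM6 (72 and 13), 0.30 in BM46 (98 and 9) and 0.28 in BM24 (80 and 3). They had 0.05 in BM1 (56 and 44) and 0.74 in BM5 (144 and 3). Members were also grouped by their stage call in BM21, a line outside those changes. The 353 members tested in adults that were higher in BM21 adults than in its larvae had medians of 0.46 in BM6 (185 higher, 19 lower), 0.41 in BM46 (192 and 15) and 0.60 in BM1 (248 and 3). The 374 members lower in BM21 adults had medians of −0.13 in BM6, −0.12 in BM46 and −0.13 in BM1. In BM5 these medians were 0.03 and −0.20. Of all genes 19.8% were higher and 18.7% lower in adult BM6, 17.0% each way in BM46, and 26.8% and 24.4% in BM1. Genes off the segment are not set beside these stage groups here, so whether the split is particular to it was not tested.

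Single strong genes show the order of the lines. CG15198 had 519, 594, 693 and 617 CPM in the adult parental libraries, 2214, 2041, 2333 and 2376 in BM1, 1459, 1480 and 1440 in the deep BM6 libraries and 861, 948, 1006 and 971 in BM46. BM5 libraries, at 476 to 674 CPM, overlapped the parental ones, and so did those of BM4, at 594 to 668. All libraries of BM1, BM6 and BM46 lay above all parental ones. The log2 change was 1.15 ± 0.17 (SE) in BM6 (adjusted p = 2.95e-06), 0.65 ± 0.16 in BM46 (adjusted p = 0.00223), 0.44 ± 0.16 in BM21 (adjusted p = 0.0527) and, as a description, 1.90 ± 0.17 in BM1.

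CG1999 held 691, 688, 616 and 575 CPM in the parental libraries, 1208, 1281 and 1329 in BM6, 915, 1003, 1004 and 1029 in BM46 and 1576, 1558, 1716 and 1718 in BM1. It was 0.88 ± 0.16 higher in BM6 (adjusted p = 9.19e-05) and 0.63 ± 0.16 in BM46 (adjusted p = 0.00246). The most abundant member per kilobase, CG1394, had 1255 to 1365 CPM in parental adults, 2205 to 2311 in BM6 and 2359 to 2468 in BM1. TrxT moved less: its libraries ran from 1304 to 1597 CPM in the parental stock and 1694 to 1840 in BM6, a change of 0.16 ± 0.15 that was not called (adjusted p = 0.444), and reached 1907 to 2075 in BM1. Of the 11 leading members, 9 rose in adult BM6 and 9 in adult BM46, the others being TrxT and lncRNA:CR43264. In the highest bin 68.9% of members were called higher in adult BM6 and 64.9% in BM46, against 19.8% and 17.0% of all genes. CG15892 rose most in BM46 (1.30 ± 0.13, adjusted p = 6.67e-09) and was also called in BM24 (0.75 ± 0.14, adjusted p = 0.000118).

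**Figure D3:**
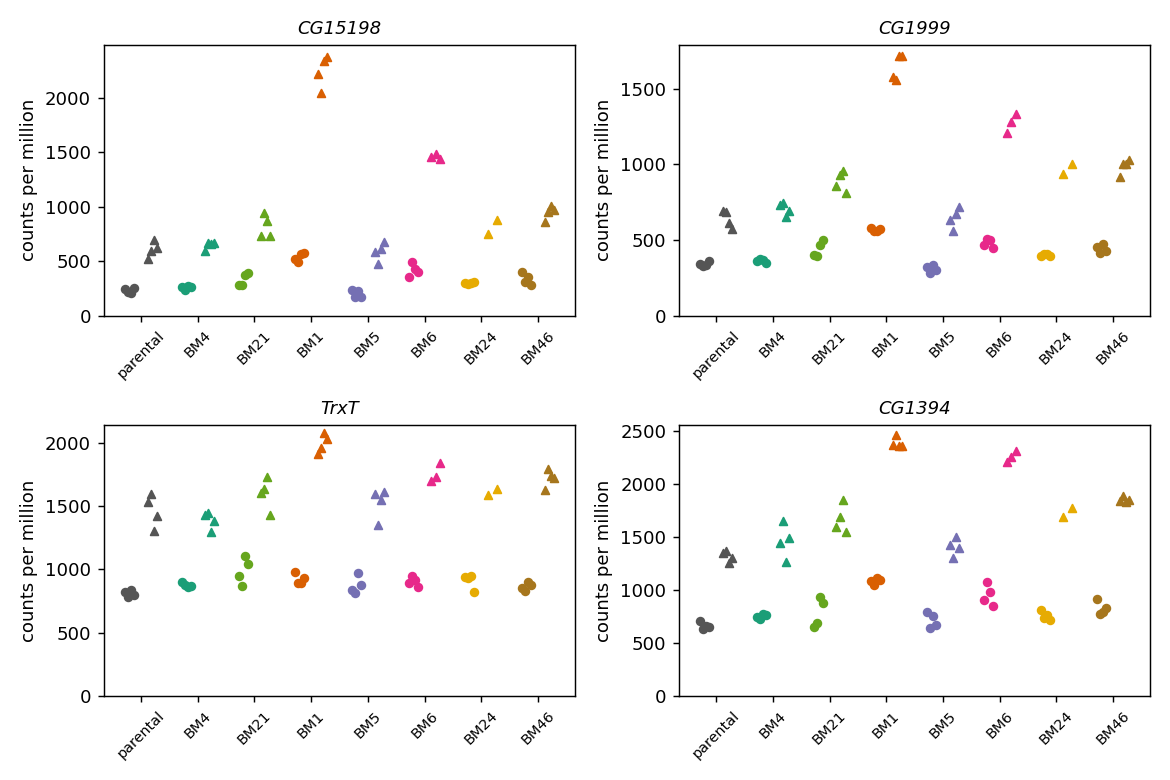
CPM (vertical axis, from 0) of 4 strongly expressed members in each deep library by line, with circles for L3 and triangles for adult testes. Adult CG15198 runs from a range of 519 to 693 in the parental stock to one of 2041 to 2376 in BM1, whereas adult TrxT differs less between lines.

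In larval testes members called higher outnumbered those called lower in BM6, BM46, BM24, BM4 and BM21. Of 1008 members tested in L3, BM6 had 331 higher (32.8%, all genes 23.1%) and 114 lower (11.3%, all genes 21.7%). BM46 had 391 higher (38.8%, all genes 23.7%) and 100 lower (9.92%, all genes 21.8%). In BM24 the counts were 260 higher (25.8%, all genes 23.2%) and 59 lower (5.85%, all genes 19.7%). The fertile lines had 217 higher (21.5%, all genes 20.1%) and 38 lower (3.77%, all genes 17.5%) in BM4 and 201 higher (19.9%, all genes 19.2%) and 60 lower (5.95%, all genes 15.7%) in BM21. Of the lines that set the limit, BM1 had 404 higher (40.1%, all genes 22.5%) and 92 lower (9.13%, all genes 21.0%). BM5 had 91 higher (9.03%, all genes 22.1%) and 196 lower (19.4%, all genes 21.9%). Nothing is read from the counts of BM1 and BM5. Members of the highest L3 bin (208) had medians of 0.41 in BM1, 0.27 in BM46 (133 higher, 11 lower), 0.25 in BM6 (116 and 15), 0.13 in BM21 (71 and 4), 0.10 in BM24 (76 and 4), 0.05 in BM4 (42 and 7) and −0.05 in BM5. Beyond the limit that median was 0.37 in BM5 and −0.01 in BM1. There it was 0.19 in BM46, 0.09 in BM6, 0.13 in BM21, 0.13 in BM24 and 0.06 in BM4. Over all bins, segment and X beyond the limit had L3 medians of 0.089 and 0.094 in BM4 and 0.082 and 0.084 in BM21. They had 0.103 and 0.119 in BM24, 0.110 and 0.018 in BM6, and 0.171 and 0.095 in BM46. In BM4, BM21 and BM24 the larval rise was thus not particular to the segment. CG1999, with 329.8 to 359 CPM in L3 parental libraries, had 450.0 to 506 in BM6 (0.49 ± 0.06, adjusted p = 9.2e-08) and 412 to 472 in BM46 (0.38 ± 0.06, adjusted p = 7.74e-06), with no library of either below a parental one.

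Fat body remnants differed between the L3 lines. The 8 fat body genes, none of them a member, summed to 183 to 317 CPM in parental, 138 to 610.4 in BM4 and 95.2 to 245 in BM21 libraries. The BM1 sums were 619 to 1026, those of BM5 733 to 1217, those of BM6 462 to 2177, those of BM24 208 to 1656 and those of BM46 531 to 1507. Its part in the larval changes was not tested. Adult libraries held uneven traces of accessory gland, whose 10 genes summed to 30.9 to 47.5 CPM in parental libraries and to 8061 in BM1 replicate 1. They summed to 1235 in BM1 replicate 4 and to 896 and 2659 in BM6 replicates 1 and 2. Sums were 1237 in BM21 replicate 4 and 762 and 773 in BM4 replicates 2 and 3. Adult fat body sums were 1129 in BM46 replicate 1 and 138 to 143 in its other libraries. Muscle sums were 1400 to 1637 in BM1, 1370 to 1414 in deep BM6 and 1309 to 1563 in BM46 adults. They were 1251 to 1440 in BM5, 1017 to 1126 in BM4 and 1104 to 1281 in BM21. Their part in the adult changes was not tested.

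Along the segment the rise was uneven. In windows of 1 Mb from the start of the X, the adult medians of BM6 were 0.06 in the first, −0.15 in the second, 0.38 in the fourth, 0.31 in the fifth and 0.39 in the eighth. BM46 had its highest medians in the fourth window and the fifth (0.38 and 0.43) and stayed at or under 0.24 in the others. BM1 ran from 0.01 to 0.44, with its low also in the second window (0.01) and its highs in the fourth (0.41) and eleventh (0.44). BM5 ran from −0.15 to −0.01, and BM4 from −0.03 to 0.12. The second window was thus the lowest of the 12 in BM1 and in BM6 alike, lines that share the parental libraries. In L3 the medians ran from 0.02 to 0.34 in BM1, 0.09 to 0.40 in BM46, 0.02 to 0.26 in BM6 and −0.09 to 0.01 in BM5.

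Values at the limit are given without a test. In adult BM5 the 113 members of the last 1 Mb below it had a median of −0.06 and the 67 X genes of the first 1 Mb beyond it 0.33. The L3 values were −0.06 (104 genes) and 0.32 (62 genes). In BM1 the medians were 0.27 below and 0.36 beyond in adults, and 0.13 below and 0.39 beyond in L3. Just inside lie sicily (11891732), a gene for assembly of respiratory complex I, wisp (11893943), a poly(A) polymerase gene of the female germline, and Upf1 (11899996), the helicase of nonsense-mediated decay. Their adult BM5 changes were 0.01, −1.28 and 0.05. Just outside, pot (11907409) went from a mean of 7.42 CPM in parental adults to 39.0 in BM5 and 34.3 in BM1, and lncRNA:CR32661 (11917806) from 571 to 1346 and 1442. CG43156 (11906452), the first beyond the limit, had 0.0137 CPM in parental and 0.188 in BM5 adults.

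**Figure D4:**
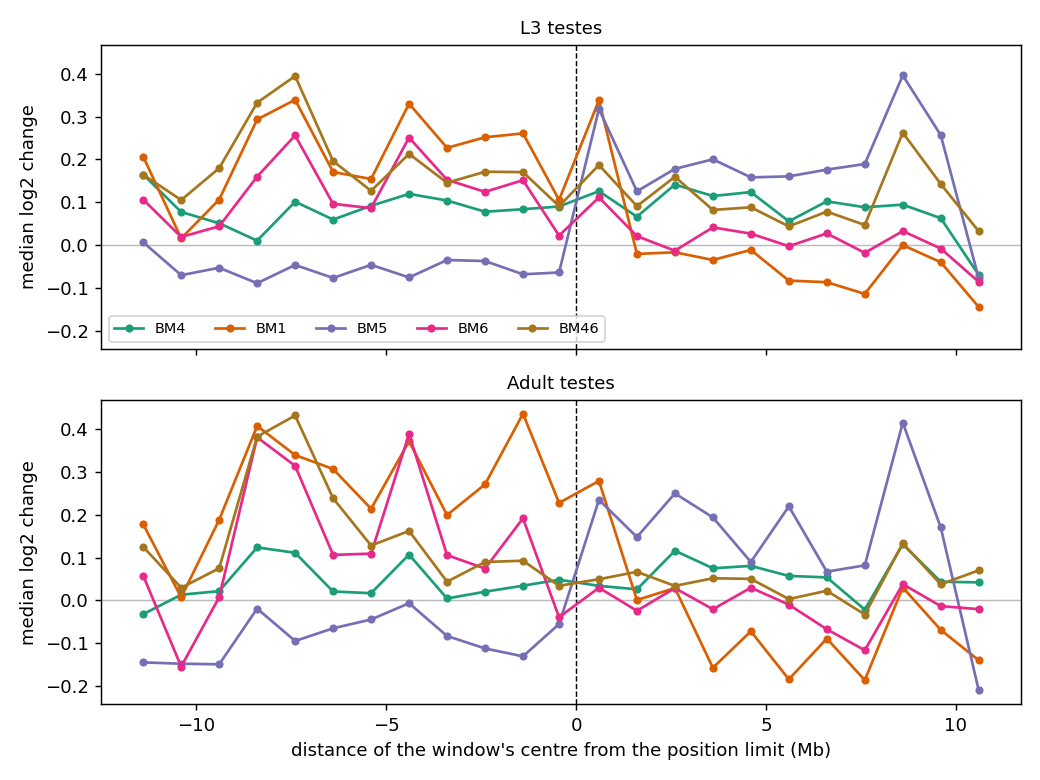
Median log2 change against the parental stock (vertical axis) of X genes in windows of 1 Mb, by distance of the window's centre from the position limit in Mb (horizontal axis), for 5 translocation lines in L3 and adult testes. The dashed line is the limit, members lie to its left, and all lines share the parental libraries. Adult BM5 stays from −0.15 to −0.01 left of the limit, and BM46 has its highest medians in the fourth window and the fifth from the left.

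Some members changed in single lines far more than their neighbours. su(w[a]) (FBgn0003638, X 1012779 to 1046040), a regulator of splicing whose mutant allele su(wa) all lines carry, held 48.2, 49.4, 50.6 and 46.5 CPM in L3 parental and 7.01, 6.54, 7.96 and 9.63 in L3 BM24 libraries, a log2 change of −2.65 ± 0.08 (adjusted p = 7.12e-22). In adults the parental libraries had 36.1, 37.7, 39.5 and 34.6 CPM and the deep BM24 libraries 5.89 and 5.23 (−2.74 ± 0.41, adjusted p = 6.87e-06). No library of another line fell into the BM24 range at either stage. Adult BM1 replicate 1 stood apart with 141 CPM, in the library with the most accessory gland RNA among deep ones. Genes beside it were listed after its change was seen. In L3 BM24 CG18823 (−0.83 ± 0.19, adjusted p = 0.000714) and CG3703 (−0.56 ± 0.22, adjusted p = 0.036) were called lower, each by less than su(w[a]). CG18823 also fell in L3 BM6 (−1.51) and L3 BM21 (−1.13), so its fall was not particular to BM24. The genes nearest to su(w[a]) were not called, with −0.09 at TfIIA-S-2, −0.21 at CG14631, −0.18 at CG3021 and −0.31 at CG11638.

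The noncoding lncRNA:CR43498 (FBgn0263509, X 9727923 to 9728488) was higher than in the parental stock in the adult libraries of all 5 sterile lines. It had 1.04, 0.92, 1.88 and 1.47 CPM in the parental libraries, 12.8, 13.4 and 13.4 in BM6, 5.95 and 9.09 in BM24, 5.2, 5.77, 4.74 and 6.1 in BM46, 2.94, 3.06, 3.34 and 5.09 in BM5 and 20.6, 20.7, 21.0 and 22.8 in BM1, each line without overlap with the parental libraries. The changes were 3.42 ± 0.24 in BM6 (adjusted p = 1.85e-12), 2.66 ± 0.25 in BM24 (adjusted p = 2.72e-09) and 2.16 ± 0.23 in BM46 (adjusted p = 1.73e-08). Values of lncRNA:CR43498 in the fertile BM4 and BM21 are plotted with the other lines but not listed here. Between adult sterile and fertile lines it was not among the members called, 0 of which were higher and 5 lower. Its rise is therefore not read as a mark of sterility. lncRNA:CR43461 went down in adult testes, from a range of 21.0 to 38.2 CPM to one of 3.56 to 6.76 in BM6 (−2.53 ± 0.21, adjusted p = 1.13e-10), 12.4 to 16.0 in BM46 and 5.97 to 8.6 in BM5. The head homeodomain gene oc rose in BM6 (2.29 ± 0.16, adjusted p = 2.32e-12) and in the fertile BM21 (1.30 ± 0.15, adjusted p = 2.16e-07), from a range of 3.44 to 4.06 CPM in parental adults to one of 16.3 to 18.9 and 7.99 to 10.3.

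CG5937 was lower in every translocation line, fertile ones included. Parental adults held 7.02, 7.07, 6.25 and 5.15 CPM, above every library of the 7 lines, and the change was −2.05 ± 0.21 in BM4 (adjusted p = 6.59e-09), −2.01 ± 0.20 in BM21 (adjusted p = 1.24e-08) and −2.30 ± 0.26 in BM24 (adjusted p = 7.75e-08). asRNA:CR44266, a transcript of uncertain strand, fell in BM4 at both stages, by 1.53 in adults (adjusted p = 5.28e-09) and by 1.10 in L3 (adjusted p = 5.65e-08) on the log2 scale. CG18823 fell in L3 BM6 (−1.51 ± 0.20, adjusted p = 1.74e-07) and L3 BM21 (−1.13 ± 0.20, adjusted p = 3.03e-05). SkpA, a subunit gene of SCF ubiquitin ligases, rose in L3 BM24 from a range of 6.08 to 7.21 to one of 11.8 to 17.8 CPM (1.10 ± 0.14, adjusted p = 1.63e-07). CG42541 rose in adult BM21 (1.67 ± 0.18, adjusted p = 5.03e-08), CG14439 in adult BM4 (1.62 ± 0.32) and mldr in adult BM24 (2.28 ± 0.59). AdamTS-B, a secreted metalloprotease gene, and CG3777 rose in L3 BM21 (1.12 and 0.99), dpr14 and Nep1 in L3 BM4 (1.01 and 0.70), where CG14627 fell (−1.29). CG6927 fell in L3 BM46 (−1.34 ± 0.19, adjusted p = 6.01e-07) and CG2145 in adult BM6 (−1.72 ± 0.48, adjusted p = 0.00531). In BM21 adults CG9360 fell by 1.00 (adjusted p = 0.0434), a call lost under 5 of 10 other settings.

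Other named members varied widely among the libraries of 1 group. Cyp4g1, a cytochrome P450 of hydrocarbon-making oenocytes, had 4.0, 2.47, 3.63 and 1.84 CPM in parental adults, 30.2, 91.6, 1435 and 229 in BM1, 153, 8.08, 15.0 and 4.41 in BM46 and 20.4, 9.06, 230.0 and 9.7 in BM4. Its change in BM46 was 3.83 ± 1.35 (adjusted p = 0.0285), and the call was lost under 3 of 10 other settings. The yolk protein genes Yp1 and Yp2, which are made in females, had 0.948, 5.73, 128 and 6.47 and 0.888, 4.62, 87.0 and 3.98 CPM in the L3 BM1 libraries, and at most 0.54 and 0.473 in L3 parental ones. Replicate 3 was the highest of that line for both, and also for Cyp4g1 (0.592, 2.46, 61.5 and 2.92 CPM). Of the 7 female follicle and yolk genes, 2 had no count in L3 parental libraries.

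**Figure D5:**
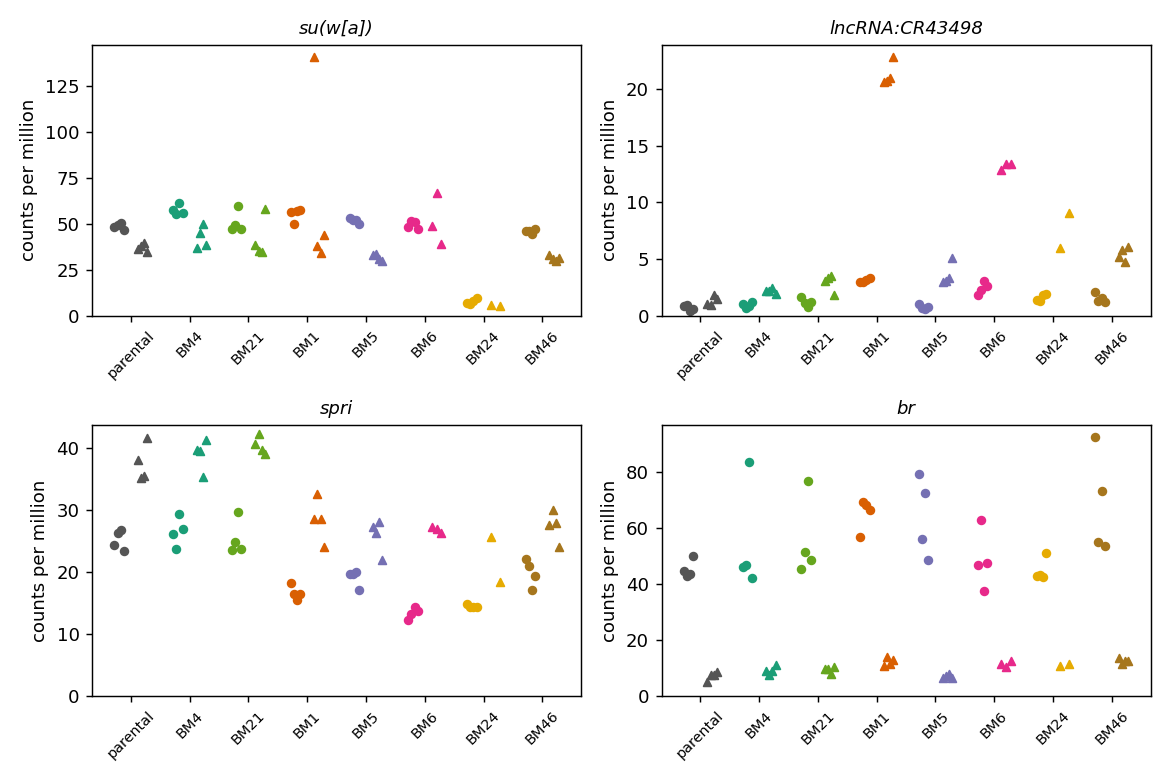
CPM (vertical axis, from 0) of su(w[a]), lncRNA:CR43498, spri and br in each deep library by line, with circles for L3 and triangles for adult testes. BM24 stands alone for su(w[a]) at 6.54 to 9.63 in L3, and br is higher in L3 than in adult testes of every line.

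The listed groups of members changed in both directions between lines. Among the dosage compensation genes lncRNA:roX1 (roX1) held 35.0 to 40.0 CPM in parental and 46.7 to 78.7 in BM1 adults, and rose in L3 of BM4 (0.50 ± 0.13, adjusted p = 0.00264), BM21 (0.36 ± 0.13, adjusted p = 0.0284) and BM46 (0.57 ± 0.13, adjusted p = 0.000479). mof fell in adult BM46 (−0.43 ± 0.14, adjusted p = 0.0181) and BM6 (−0.39 ± 0.15, adjusted p = 0.0415), and ran at 11.8 to 15.4 CPM in BM1 against 19.9 to 29.4 in parental adults. Among the 10 meiosis, spindle and cell cycle genes the adult counts were 3 higher and 2 lower in BM6. They were 3 higher and 1 lower in BM46, 2 higher and 1 lower in BM24, and 0 higher and 1 lower in BM21. Of all genes 19.8% were higher and 18.7% lower in adult BM6, and 17.0% each way in BM46. The shares were 15.0% and 13.5% in BM24, and 11% and 8.61% in BM21. Klp10A, a microtubule-depolymerizing kinesin gene, rose in BM6 (0.79), BM24 (0.52) and BM46 (0.40), and Cdk7, a kinase of the transcription and cell cycle machinery, fell in BM6 (−0.79), BM24 (−0.63), BM46 (−0.63) and the fertile BM21 (−0.45).

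Germline and sex determination genes gave 0 higher and 3 lower of 10 in adult BM6, 0 higher and 2 lower in BM46, and 0 higher and 1 lower in each of BM4, BM21 and BM24, where 18.7%, 17.0%, 8.69%, 8.61% and 13.5% of all genes were lower. In L3 the 9 tested gave 4 higher and 2 lower in BM4, 3 and 0 in BM21, 3 and 3 in BM24, 2 and 1 in BM6 and 0 and 2 in BM46. In L3 of these lines 19.2% to 23.7% of all genes were higher and 15.7% to 21.8% lower. Housekeeping genes gave 2 higher and 5 lower of 10 in adult BM6 and 2 higher and 4 lower in BM24. They gave 2 higher and 1 lower in adult BM46 and BM1, 0 and 2 in BM5, and 0 and 1 in BM4 and BM21. The adult shares of all genes higher and lower were 19.8% and 18.7% in BM6 and 15.0% and 13.5% in BM24. They were 17.0% each way in BM46 and 26.8% and 24.4% in BM1. In adult BM5, BM4 and BM21 9.12% to 15.6% of all genes were higher and 8.61% to 15.4% lower. Of 11 somatic signalling and adhesion genes 6 were called higher and 1 lower in L3 BM46, and 3 and 1 in L3 BM6 and BM24. The L3 counts were 4 and 0 in the fertile BM4 and BM21, and 4 and 1 in BM1 and BM5. In these L3 lines 19.2% to 23.7% of all genes were higher and 15.7% to 21.9% lower. The lower gene of this list in L3 BM46 was per (−1.13 ± 0.18, edgeR adjusted p = 5.81e-06). Among the 3 ecdysone genes br rose in adult BM6 (0.72), BM24 (1.03) and BM46 (0.87), and 1 other was called lower in BM6 and in BM46. Of all genes 19.8% were higher and 18.7% lower in adult BM6, 15.0% and 13.5% in BM24, and 17.0% each way in BM46. The pigment genes named in the genotype moved in fertile and sterile lines alike. y, at 0.713, 0.291, 0.625 and 0.736 CPM in parental adults, was called higher in adults of BM4 (1.49), BM21 (1.67), BM6 (1.56), BM24 (1.50) and BM46 (1.21), and w was lower in L3 of each of these by 0.42 to 0.85 on the log2 scale.

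Sterile and fertile lines were compared with the line as the unit, 5 sums against 3. The selection of the members used BM1, BM5 and the parental stock, which enter this comparison. In adults 5 of 1106 members were called lower and 0 higher, beside 1.28% and 1.48% of all genes (edgeR, with 195 members at an unadjusted p under 0.05), and DESeq2 called 70. The median of the highest bin was 0.31, with 0 called higher of 239. Without BM5, 11 members were called and all were higher. They were mldr, CG2871, CG14785, CG15892, CG12684, CG15764, CG6903, CG12680, CG12682, eIF4E7 and Rpn13R, genes named after their values were seen. BM5 had the lowest segment level and helped to set the limit, so nothing is read from the direction of these calls. The share of all genes called in that fit is not given here. Without BM4 or without BM6 none was called, and with the letter of the library name as a covariate none.

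The lower adult members were CG6927 (−1.56 ± 0.29, adjusted p = 0.0337), spri (−0.57 ± 0.10, adjusted p = 0.0252), e(r) (−0.44 ± 0.09, adjusted p = 0.0422), w (−0.42 ± 0.09, adjusted p = 0.0438) and CCT2, a chaperonin subunit gene (−0.32 ± 0.07, adjusted p = 0.0445). spri (FBgn0085443, X 10490069 to 10585422), a Ras-binding regulator of endocytosis, was called lower at both stages. On the scale of the summed lines it had 18.9 to 23.7 CPM in adult sterile and 31.0 to 34.3 in adult fertile lines, and 15.3 to 23.1 against 29.0 to 30.2 in L3 (−0.63 ± 0.14, adjusted p = 0.0261). The groups did not overlap. Its call was lost under 5 of 13 other settings in adults and 5 of 12 in L3. The other adult calls were lost more often, under 10 of 13 settings for w, 9 for CCT2, 8 for e(r) and 7 for CG6927.

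In L3, 14 of 1083 members were called higher in sterile lines and 3 lower, beside 3.26% and 2.27% of all genes. Higher were CG15369 (2.61 ± 0.45), CG2233 (1.89 ± 0.28, adjusted p = 0.00485), CG10962 (1.88 ± 0.25, adjusted p = 0.00327), CG2444 (1.73 ± 0.33), Idgf4 (1.18 ± 0.20, adjusted p = 0.00978), the monocarboxylate transporter gene Mct1 (1.18 ± 0.23, adjusted p = 0.0168) and the endocytic receptor gene Cubn (0.60 ± 0.15), with CG32695, CG12116, CG2145, CG1468, CG11700, rudhira and CG44385. CG11700 had the most RNA of these, 119 to 157 CPM in sterile and 64.9 to 93.7 in fertile lines (0.87 ± 0.13, adjusted p = 0.00512). Lower were CR14798 (−0.94 ± 0.17), spri and Coa8 (−0.34 ± 0.08). The call of Cubn was lost under 10 of 12 other settings, that of Coa8 under 9, CG44385 under 8, rudhira under 7, and CG32695 under 6 of 11. CG2233 moved with the fat body sum from library to library. In L3 BM6 it held 16.2, 14.2, 3.25 and 21.9 CPM, where the fat body genes summed to 1879, 1517, 462 and 2177. In L3 BM24 it held 2.52, 2.88, 10.9 and 26.9 CPM, beside sums of 208, 226, 1021 and 1656. CG10962 had 0.962, 1.38, 3.82 and 5.4 CPM in the latter libraries. The part of fat body RNA in these larval calls was not tested.

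Whether the stage change differed between sterile and fertile lines was asked over the 16 line sums. No member of 1145 tested was called (0% of all genes), 115 had an unadjusted p under 0.05 in edgeR, and DESeq2 called 13. The median of the difference was −0.00 on the log2 scale.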

How the data were processed

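Poly(A) RNA of 64 testis pools was made into stranded libraries from 350 ng of RNA with 8 libraries per lane and read as 50 bp single ends, per the labels' protocols. The submitters' processing notes name bcl2fastq 1.8, cutadapt, HISAT2 2.1.0 and featureCounts 1.6.1. Raw counts of reads per gene were deposited by the authors. The sources used here do not give the genome build. Chromosome, start and end of 1340 of the 1351 members were the same in Ensembl BDGP6, where 1341 identifiers matched. Every pair of pools within a group differed (chi-square per degree of freedom 2.53 to 64.5).

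Tests ran in R 4.3.3 on the counts, by the quasi-likelihood method of edgeR 4.0.16 with TMM scaling and filterByExpr (Benjamini-Hochberg adjusted p under 0.05 over all genes), in 1 fit per line for stage, 1 per stage for lines, and on line sums for sterility. CPM values use TMM over all 64 libraries without a prior, and levels a prior count of 2. DESeq2 1.42.0, other scalings, filters, blocks and left-out libraries were tried, and the fits were tested on simulated data. Members, lists and rules were chosen with earlier results of these data known. Named genes are, among those called without overlap and with a mean log2 CPM of 1 or more, the 12 largest parental stage changes, 2 per line and 8 per class comparison each way, with the 10 highest levels per stage, the lists and the genes at the limit.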

Additional observations from a re-analysis of the deposited data

Results flagged for a closer look

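Adult BM24 replicate 2, a library of 233047 counts, had a segment level of −0.272 relative to chromosome 3, while the other 3 libraries of that group lay from −0.549 to −0.515. Its gap to them passed Dixon's limit for 4 values, which chance passes in about 1 of 20 groups. Its fat body genes summed to 9731 CPM, and the part of depth and of fat body RNA was not tested.

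The segment's level lay below the parental mean in every BM5 library and above it in every library of the lines set beside BM5 here. In adults the level of the segment in BM5 was −0.354 relative to BM1, −0.231 relative to BM6 and −0.251 relative to BM46 on the log2 scale. In L3 it was −0.151 relative to BM4, −0.253 relative to BM1, −0.143 relative to BM6, −0.136 relative to BM24 and −0.227 relative to BM46. These differences were not tested, since BM5 and BM1 set the limit and all lines share the parental libraries.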

How the results depend on the processing

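No sign of a named gene's change reversed under any other setting that was run, and 885 repeats kept their side of the threshold. The other 107 lost the call, most of them in the comparison of sterile with fertile lines. The median over genes, library size alone and the other settings moved the values below, and the cause was not tested.

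With DESeq2 the members called between stages were 374 in BM6 and 363 in BM24, and against the parental stock in adults 38 in BM4, 69 in BM21, 348 in BM1, 62 in BM5, 252 in BM6, 157 in BM24 and 212 in BM46. Sterile against fertile lines DESeq2 called 70 in adults and 54 in L3, and 13 for the difference in stage change. Without the 3 shallow libraries the adult counts were 199 in BM4, 279 in BM21 and 289 in BM5. Library size alone gave 282 in adult BM5 and 11 between adult classes. Fits of only the 2 lines compared gave 113 in adult BM24 and 169 in L3 BM21. Without a filter on low counts 2 members were called between adult classes. With the letter of the library name as a covariate there were 0 in adults and 6 in L3. Leaving out a line gave between adult classes 1 without the parental stock, 0 without BM4, 1 without BM21, 2 without BM1, 11 without BM5, 0 without BM6 and 3 without BM46. In L3 it gave 10 without BM4 and 11 without BM21.

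Leaving out 1 replicate number in all lines gave 50 to 81 members in adult BM4, 63 to 103 in BM21, 99 to 160 in BM5, 137 to 273 in BM24 and 262 to 347 in BM46. No other count of stages or lines moved by more than 1.5 times. The replicate numbers did not pair the samples (0 of 22 sets of same-numbered libraries had every correlation over 0.1, range −0.234 to 0.192). With the replicate block 672 members were called between parental stages, 410 in adult BM6 and 488 in L3 BM46, and no count moved by over 1.5 times.

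The level taken as the median over genes changed from L3 to adult by 0.0654 in BM1, 0.0408 in BM21, −0.66 in BM24, 0.0413 in BM4, 0.0291 in BM46, 0.022 in BM5, 0.068 in BM6, 0.0861 in parental. Against the parental stock it changed by 0.146 in Adult BM1, 0.0171 in Adult BM4, −0.0809 in Adult BM5, −0.654 in Adult BM24, 0.166 in L3 BM1, 0.0619 in L3 BM4, −0.0168 in L3 BM5, 0.0948 in L3 BM6, 0.0622 in L3 BM21, 0.0923 in L3 BM24. The values of −0.66 and −0.654 for BM24 include its shallow adult libraries. With a prior count of 0.5 the level changed from L3 to adult by −0.0632 in BM21, −0.123 in BM4, −0.107 in BM5. Over genes with a mean log2 CPM of at least 3 it changed from L3 to adult by 0.134 in BM1, 0.0334 in BM21, −0.0301 in BM4, 0.035 in BM46, 0.00629 in BM5, 0.116 in BM6, 0.0276 in parental. Against the parental stock it changed by 0.334 in Adult BM1, 0.0275 in Adult BM4, −0.0567 in Adult BM5, 0.217 in Adult BM6, 0.0676 in Adult BM21, 0.197 in Adult BM46, 0.228 in L3 BM1, 0.0852 in L3 BM4, −0.0354 in L3 BM5, 0.129 in L3 BM6, 0.0618 in L3 BM21, 0.0903 in L3 BM24, 0.189 in L3 BM46. Against genes of 2L, 2R, 3L and 3R it changed from L3 to adult by −0.119 in BM4. Against the parental stock it changed by 0.122 in Adult BM6, 0.0421 in Adult BM21, 0.0611 in L3 BM4, 0.0615 in L3 BM6, 0.0243 in L3 BM21, 0.0656 in L3 BM24.

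Limits come first from depth: adult BM24 rests on 2 deep libraries, and all adult line contrasts share 1 parental group, whose name letter no other adult library has. Counts without a stated strand setting leave antisense genes uncertain. Values beside the members at low levels rest on few counts, and 301 members stayed under 1 CPM in every group. The promoter motif description planned for the segment was not run, as no promoter sequences were used here.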

Other observations

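Members called in every translocation line against the shared parental libraries were few, counted with BM1 and BM5, whose values set the limit. In adults 4 of 1045 members (0.383%, all genes 2.5%) were called higher in all 7 lines and 8 (0.766%, all genes 1.54%) lower. In L3 27 of 1008 (2.68%, all genes 4.37%) were higher and 3 (0.298%, all genes 2.95%) lower. In at least 1 line 508 members were called higher in adults (48.6%, all genes 41.1%) and 605 in L3 (60.0%, all genes 48.5%). CG5937 and w are among the members that moved one way in fertile and sterile lines, in adults and in L3 respectively.

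The genes beside su(w[a]), chosen after its fall in BM24 was seen, gave calls in both directions in adult BM24, where 2 libraries are shallow. Called lower were CG3703 (−0.89), CG18823 (−1.17), CG32814 (−1.38), Rpp21 (−1.30) and CG11638, and higher Cdc45 (0.33) and CG14631. CG11638 changed by −1.07 ± 0.25 (SE, edgeR adjusted p = 0.00182) and CG14631 by 0.62 ± 0.16 (adjusted p = 0.00429).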
